A study of Mus musculus with 2 samples.

Results

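Reelin and the 3 genes that carry its signal into the cell are described here in mouse neural stem cells in which the histone variant H3.3 was knocked down. The genes are Reln, which encodes the secreted ligand, Vldlr and Lrp8, which encode its receptors, and Dab1, which encodes the adaptor inside the cell. They were found by symbol among the 18510 genes of the deposited count table, and all 4 of 4 are present. They were selected on their measured levels in the same 2 libraries that are compared below, so their ratios are a description and no test is attached to them. The knockdown group was infected with a lentivirus carrying an H3.3 knockdown plasmid and the control group with a lentivirus carrying a control plasmid. Both groups were cells of the CD-1 strain, taken from embryonic brain at embryonic day 12 and kept for 5 days in medium that supports proliferation. Each group held 1 library, with 8702855 counts over genes in the knockdown and 9184779 in the control. The labels give neither the knockdown sequence nor the number of embryos or cultures behind a library.

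The genes that encode H3.3 were lower in the knockdown library but still well expressed. Levels are given in CPM, the count scaled to 1000000 counts of the library, with a 95% counting interval after each ratio. H3f3b held 446.8 CPM in the knockdown and 820.8 CPM in the control (ratio 0.544, 0.523 to 0.566), and H3f3a held 135.2 CPM in the knockdown and 209.3 CPM in the control (0.646, 0.601 to 0.695). Neither difference reached 2-fold.

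Reelin is a large glycoprotein that is secreted in the developing cortex mainly by Cajal-Retzius cells and later also by interneurons. It binds Vldlr and Lrp8 (also called ApoER2), 2 members of the LDL receptor family whose tails hold Dab1. Src family kinases then phosphorylate Dab1, which recruits Crk adaptors and the PI3 kinase pathway before a Cul5 ubiquitin ligase removes it. Mice that lack Reelin, Dab1 or both receptors have disordered cortical layers.

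The ligand gene stood far above its control level, the adaptor and 1 receptor were moderately higher, and the other receptor was lower. A size rule was used to describe genes, because 1 library per group allows no test of the knockdown. A gene passes it when its average over both libraries reaches 1 CPM, its difference reaches 2-fold and its 95% counting interval leaves out equality, and "rose" and "fell" are used only for genes past it. All intervals cover counting error only and not the spread between cultures. The filter on low values kept 13989 genes, of which 3.82% were higher by this rule and 2.54% were lower, and the median log2 ratio (knockdown over control, here and throughout) was -0.03. All 4 Reelin pathway genes passed the filter on low values, and 1 of them, Reln, passed the size rule. Since the genes were chosen with these ratios known, nothing is read from that count.

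Reln, on chromosome 5 from 21884454 to 22344702 on the minus strand (ENSMUSG00000042453), held 3897 counts in the knockdown library and 1556 in the control library. These counts correspond to 447.8 CPM in the knockdown and 169.4 CPM in the control, a ratio of 2.64 (interval 2.49 to 2.80) and a log2 ratio of 1.40. The knockdown library is the higher one, and the counting intervals of the 2 libraries do not overlap. Of all tested genes, 1.69% had a higher log2 ratio than Reln. By CPM, which is not corrected for the length of a gene, 1.74% of tested genes stood above Reln in the knockdown library. In the control library 9.51% did. The authors' deposited table gives Reln a log2 fold change of 1.40 and marks it as significant, and it marks none of the other 3 genes.

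Dab1, on chromosome 4 from 103619359 to 104744844 on the plus strand (ENSMUSG00000028519), held 1498 counts in the knockdown and 994 in the control. Its level was 172.1 CPM in the knockdown library and 108.2 CPM in the control library, a ratio of 1.59 (1.47 to 1.73) and a log2 ratio of 0.67. This difference is larger than counting error and smaller than 2-fold, and 9.28% of tested genes had a higher log2 ratio. The adaptor was thus above its control level by less than its ligand was.

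The receptor genes stood on opposite sides of their control levels. Vldlr, on chromosome 19 from 27216484 to 27254231 on the plus strand (ENSMUSG00000024924), held 894 counts in the knockdown and 730 in the control. That is 102.7 CPM in the knockdown and 79.5 CPM in the control, a ratio of 1.29 (1.17 to 1.43). Lrp8, on chromosome 4 from 107802261 to 107876840 on the plus strand (ENSMUSG00000028613), held 1914 counts in the knockdown and 2552 in the control. Its level was 219.9 CPM in the knockdown library and 277.9 CPM in the control library, a ratio of 0.792 (0.746 to 0.840). Neither receptor reached a 2-fold difference, with log2 ratios of 0.37 for Vldlr and -0.34 for Lrp8, and both intervals leave out 1. Higher log2 ratios than that of Vldlr were found for 19.1% of tested genes, and lower log2 ratios than that of Lrp8 for 21.6%.

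**Figure D1:**
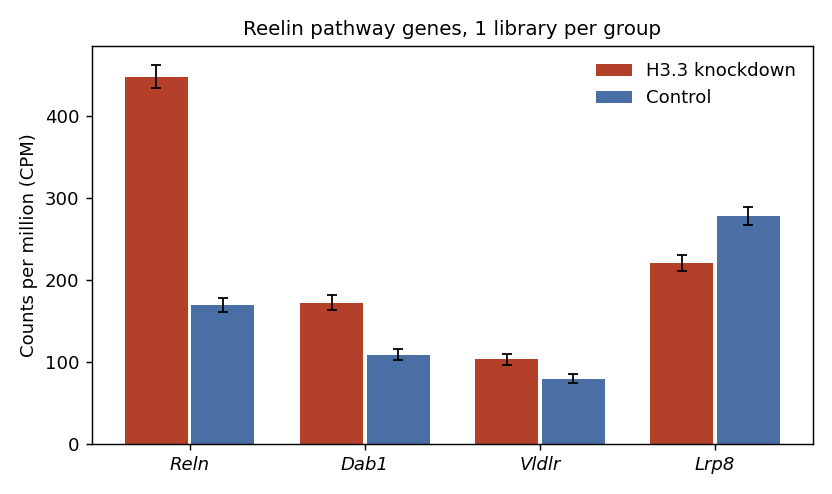
Level of Reln, Dab1, Vldlr and Lrp8 in CPM (vertical axis, from 0) in the H3.3 knockdown library (red) and the control library (blue), with exact 95% Poisson intervals of the count as error bars. Reln stands at 447.8 CPM in the knockdown and 169.4 CPM in the control, and Lrp8 is the only gene of the 4 with the lower bar in the knockdown.

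The sum of the receptor counts was slightly below the control, beyond counting error. Vldlr and Lrp8 together held 2808 counts in the knockdown and 3282 in the control, or 322.7 CPM in the knockdown and 357.3 CPM in the control, a ratio of 0.903 (0.858 to 0.95). Vldlr made up 31.8% of these receptor counts in the knockdown library (exact Clopper-Pearson 95% interval 30.1 to 33.6) and 22.2% in the control library (20.8 to 23.7). The Vldlr-to-Lrp8 count ratio was 0.467 in the knockdown and 0.286 in the control. The log2 change of that ratio was 0.71, with a 95% counting interval of 0.54 to 0.87 from the 4 counts.

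Ratios between 2 genes within a library do not depend on how the libraries are scaled. There were 2.04 Reln counts for each Lrp8 count in the knockdown and 0.610 in the control, a log2 change of 1.74 (counting interval 1.62 to 1.86). For Reln over Vldlr the count ratios were 4.36 in the knockdown and 2.13 in the control, a log2 change of 1.03 (0.87 to 1.20). For Reln over Dab1 they were 2.60 in the knockdown and 1.57 in the control, a log2 change of 0.73 (0.59 to 0.88). Ligand counts stood higher against those of each of the 3 other genes in the knockdown library than in the control library. That restates the member ratios above, of which Reln had the highest, and is no further result. Among the other pairs, Dab1 over Lrp8 had a log2 change of 1.01 (0.86 to 1.15) and Dab1 over Vldlr one of 0.30 (0.12 to 0.48).

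Levels of different genes can be set side by side only per length, here as CPM per kilobase of merged exon (RPKM). In the knockdown library Dab1 stood at 21.8 RPKM, Lrp8 at 20.9, Reln at 18.9 and Vldlr at 10.2. In the control library Lrp8 stood at 26.4 RPKM, Dab1 at 13.7, Vldlr at 7.89 and Reln at 7.14. The counting intervals of the neighbours Dab1 and Lrp8 overlap in the knockdown (that of Dab1 starts at 20.7 RPKM and that of Lrp8 ends at 21.9), and those of Vldlr and Reln overlap in the control (7.33 to 8.49 RPKM for Vldlr and 6.79 to 7.50 for Reln). The order depends on the length used, because the merged exons of Reln sum to 23.7 kb and its longest annotated transcript is 11699 bases. Divided by the longest transcript, Reln comes first in the knockdown library at 38.3 RPKM, ahead of Lrp8 at 33.2 and Dab1 at 32.6. On that scale Reln stands at 14.5 RPKM in the control library, between Dab1 at 20.5 and Vldlr at 9.97.

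**Figure D2:**
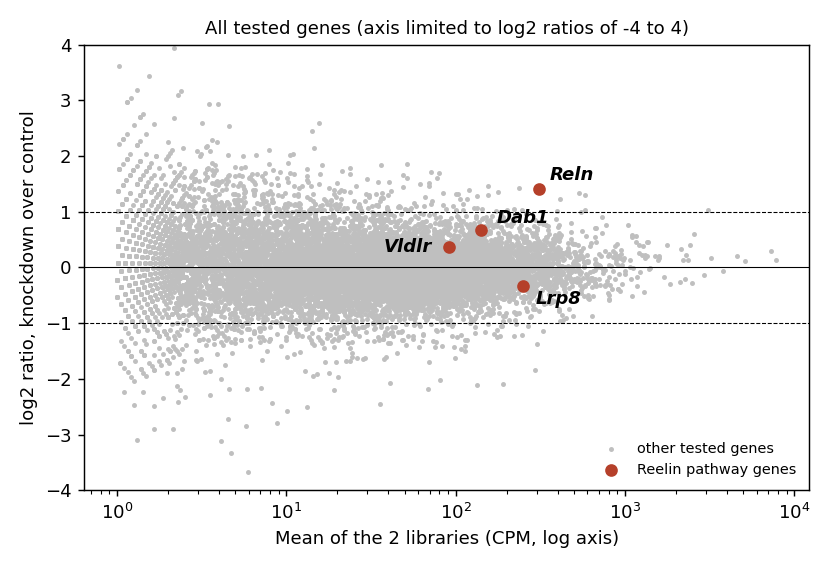
Log2 ratio of knockdown over control (vertical axis) against the mean of both libraries in CPM (horizontal log axis) for the tested genes, with the Reelin pathway genes in red and dashed lines at 2-fold. Reln lies above the upper dashed line at a log2 ratio of 1.40, while Dab1, Vldlr and Lrp8 lie between the dashed lines.

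The start of Reln is shown because Reln is the gene of the 4 with the highest ratio, and the first RefSeq start of Lrp8 because Lrp8 has the lowest. Both windows are RefSeq promoter sequence of build GRCm38.p6, from 250 bases before to 50 bases after the start, written 5′ to 3′ on the strand of the gene. The RefSeq start of Lrp8 lies inside the gene as the deposited table places it. Capitals mark the GC box GGGCGG, searched on both strands.
Reln, chr5:22344656-22344955, minus strand: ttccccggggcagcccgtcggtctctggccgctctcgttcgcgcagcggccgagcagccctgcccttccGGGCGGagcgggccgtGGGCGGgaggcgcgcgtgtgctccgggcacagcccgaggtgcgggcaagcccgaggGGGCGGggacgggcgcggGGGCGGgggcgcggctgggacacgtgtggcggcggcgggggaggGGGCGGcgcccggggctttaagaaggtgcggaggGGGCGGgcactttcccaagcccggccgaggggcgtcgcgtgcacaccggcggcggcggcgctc
Lrp8, chr4:107802635-107802934, plus strand: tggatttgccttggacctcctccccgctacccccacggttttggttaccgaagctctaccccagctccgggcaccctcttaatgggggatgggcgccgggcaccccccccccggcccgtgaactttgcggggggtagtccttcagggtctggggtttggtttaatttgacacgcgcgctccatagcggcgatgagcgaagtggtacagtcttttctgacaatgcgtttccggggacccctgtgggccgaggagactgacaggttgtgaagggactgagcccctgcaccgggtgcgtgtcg
The Reln window is 80.7% G and C and holds 47 CpG pairs, more than all but 1.22% of the 32851 mouse promoter windows of this length, whose median is 7. It holds 6 GC boxes, which are found at least once in 35.7% of all windows, and 1 E-box CACGTG, found in 7.15%. The Lrp8 window holds 21 CpG pairs and neither motif. The letters TATAAA, on either strand, are in neither window and in 13.6% of all windows. No base belonged to more than 1 of these motifs. RefSeq lists 8 such windows for the 4 genes. The 2 Dab1 windows hold 12 and 46 CpG pairs, the 2 Vldlr windows 8 and 23, and the other 2 Lrp8 windows 5 and 4. A match of letters is a description of the sequence, and binding and methylation were not measured.

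The genes around the members were looked at by position, taking the nearest tested gene on either side. Beside Reln, Psmc2, which encodes a proteasome subunit, held 124.2 CPM in the knockdown and 103.6 CPM in the control, a ratio of 1.20 (1.10 to 1.31). On the other side Orc5, which encodes a subunit of the origin recognition complex, had a ratio of 1.15 (0.974 to 1.35). None of the 15 tested genes within 1000 kb of Reln passed the size rule, and their median log2 ratio was 0.03. Beside Dab1, Prkaa2, a catalytic subunit of the kinase AMPK, rose to 63.5 CPM in the knockdown, against 29.4 CPM in the control, a ratio of 2.16 (1.87 to 2.51), and Oma1, a mitochondrial protease gene, had 1.27 (0.855 to 1.90). The neighbours of Vldlr were Smarca2, an ATPase of the BAF remodeller, at a ratio of 1.29 (1.22 to 1.37), and Pum3 at 0.972 (0.864 to 1.09). The neighbours of Lrp8 were Lrp8os3 at 1.01 (0.527 to 1.92) and the splicing-linked gene Magoh at 0.95 (0.812 to 1.11). No tested gene within 1000 kb of Vldlr (3 genes) or Lrp8 (30 genes) passed the rule. An annotated antisense gene, Gm10475, shares 246 of the 23738 merged exon bases of Reln and is not among the genes of the deposited table. Reads there cannot be told apart because the strand setting of the counting is not given in the sources used here.

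Reln and Dab1 are also among the longest of the tested genes, at 460.2 kb and 1125 kb from end to end. Only 1.66% of tested genes span more than Reln and 0.236% more than Dab1, whereas Vldlr spans 37.7 kb and Lrp8 74.6 kb. Long genes as a class had higher ratios in these libraries. Of the 501 tested genes of at least 300 kb, 9.18% were higher and 2.00% lower by the size rule, and their median log2 ratio was 0.32. Of the 3743 genes under 10 kb, 3.58% were higher and 3.53% lower, around a median of -0.07. Among the genes of at least 300 kb, 2.40% had a higher log2 ratio than Reln and 24.2% a higher one than Dab1. Among the 3869 genes of 30 to 100 kb, 18.8% had a higher log2 ratio than Vldlr and 80.4% a higher one than Lrp8. The part of gene length in the ratios of Reln and Dab1 was not tested.

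**Figure D3:**
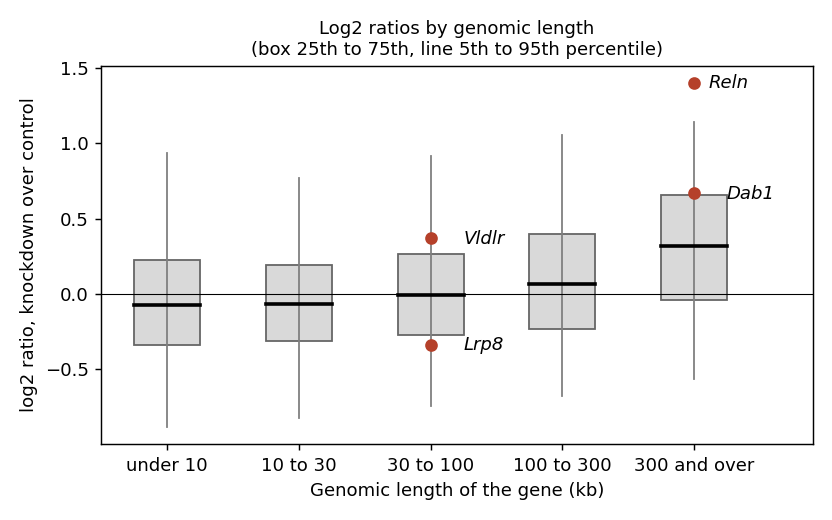
Log2 ratio of knockdown over control (vertical axis) for tested genes grouped by genomic length in kb (horizontal axis), with boxes from the 25th to the 75th percentile, lines from the 5th to the 95th and a black bar at the median. Reln lies above the line of the group of 300 kb and over, and Dab1 lies near the upper edge of its box.

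The wider pathway was described by 9 lists that hold 89 genes besides the 4 members. Of the 87 that were tested, 1 rose and 1 fell, against 3.82% higher and 2.54% lower by the size rule among all tested genes. The 87 genes had a median log2 ratio of 0.05. Log2 ratios within 0.5 of 0 were found for 67 of them (77.0%), against 73.3% of all tested genes. Both shares are close, and both genes past the rule belong to the list of Reln transcription.

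Among the proteases that cut Reelin or related substrates, none of 6 tested genes passed the rule, and the median log2 ratio was 0.17. Plat, tissue plasminogen activator, held 150.6 CPM in the knockdown and 100.3 CPM in the control, a ratio of 1.5 (1.38 to 1.64). Furin, a proprotein convertase, had a ratio of 1.13 (0.983 to 1.29). Adamts3, a main Reelin-cleaving protease in the mouse brain, had a log2 ratio of 0.17, from 175 counts in the knockdown and 164 in the control. The other ligands of the receptors had a median of -0.42 over 5 genes, with none past the rule. Apoe, the lipid carrier for which the receptors are also known, held 534.7 CPM in the knockdown and 767.2 CPM in the control, a ratio of 0.697 (0.671 to 0.723), and Spon1, an extracellular ligand of Lrp8, had 0.622 (0.566 to 0.683). Selenop, a selenium carrier, and Thbs1, thrombospondin 1, stood above the control, at 1.71 (1.46 to 2.02) and 1.57 (1.39 to 1.78).

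In the rest of the LDL receptor family 9 of 12 genes lay below 0 in log2 ratio, none passed the rule, and the median was -0.30. Of all tested genes, 47.1% lay above 0. Lrp1, a large endocytic receptor, held 837.4 CPM in the knockdown and 686.0 CPM in the control (ratio 1.22, 1.18 to 1.26). Lrp4, a receptor of the neuromuscular synapse, had the lowest log2 ratio of the list at -0.88 (ratio 0.542, 0.499 to 0.588). Genes that handle the receptors had a median of 0.14 over 6 tested genes and none past the rule. Lrpap1, a chaperone of the family, had a ratio of 1.25 (1.15 to 1.35), and Adam10, a membrane protease, had 1.17 (1.09 to 1.25). In the list of co-receptors and partners, none of 9 passed the rule, the median was 0.20, and log2 ratios ran from -0.77 for the ephrin Efnb2 to 0.65 for the ephrin Efnb3. App, the amyloid precursor protein, held 888.8 CPM in the knockdown and 582.0 CPM in the control (ratio 1.53, 1.47 to 1.58), and the adhesion molecule Cdh2, at 1.03 (0.992 to 1.08), did not differ beyond counting error.

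Downstream of the receptors genes went both ways without passing the rule. Kinases of Dab1 and effectors had a median of -0.04, with none of 20 past the rule and log2 ratios from -0.74 (the kinase Akt1) to 0.36. Their most abundant genes were Cfl1, the actin-severing protein cofilin, at a ratio of 1.10 (1.07 to 1.13), and the kinase gene Gsk3b at 0.828 (0.792 to 0.865). Fyn, the main Dab1 kinase in mouse neurons, had a log2 ratio of 0.11, Crk one of -0.03 and Crkl one of -0.15. In the list for degradation of Dab1 none of 9 passed the rule, the median was 0.05, and log2 ratios ran from -0.45 to 0.22. Its ubiquitin ligase Cul5 had -0.13, and the abundant members Cbl and Elob had ratios of 1.04 (0.971 to 1.11) and 1.07 (0.989 to 1.16). The list of Lis1, doublecortin and Cdk5 genes, which act on microtubules in migrating neurons, had a median of 0.19, with 11 of 14 above 0, none past the rule and log2 ratios from -0.83 (the Lis1 partner Nde1) to 0.66 (the Cdk5 activator Cdk5r2). Map1b, a microtubule-associated protein, had a ratio of 1.32 (1.29 to 1.35), and Tuba1a, an alpha-tubulin, had 1.12 (1.09 to 1.15).

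Of 6 genes linked to transcription of Reln in earlier work, 1 rose, 1 fell and the median was -0.25. Tbr1, a T-box factor of early-born cortical neurons and Cajal-Retzius cells, rose to 151.1 CPM in the knockdown, against 68.3 CPM in the control (ratio 2.21, 2.01 to 2.44). Dnmt1, which maintains CpG methylation through DNA replication, fell to 133.2 CPM in the knockdown, against 310.9 CPM in the control (ratio 0.428, 0.40 to 0.459). Pax6, a progenitor factor, had a log2 ratio of -0.90, and Sp1 and Creb1 had -0.27 and -0.23. Whether any of these bears on Reln was not tested.

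**Figure D4:**
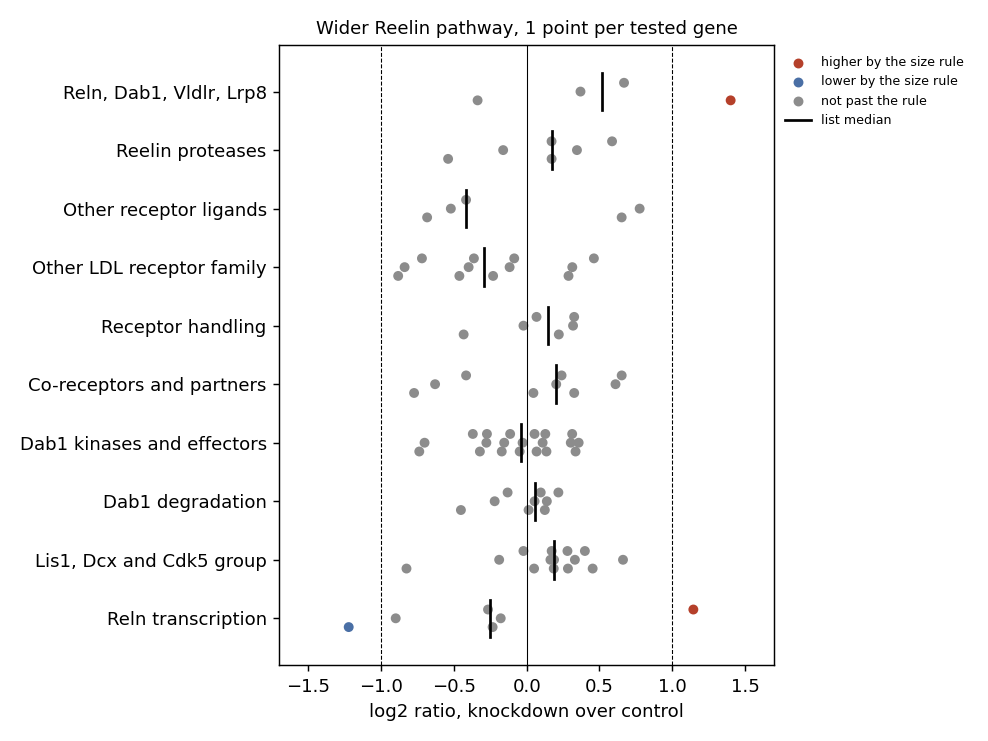
Log2 ratio of knockdown over control (horizontal axis) for each tested gene of the Reelin pathway lists (rows), with list medians as black bars, dashed lines at 2-fold, and genes past the size rule in red (higher) or blue (lower). Reln, Tbr1 and Dnmt1 are the 3 coloured points, and the other genes lie between the dashed lines.

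Because Reln is expressed by few cell types, markers of those types are given beside it. In a bulk library, more cells of a type and more RNA per cell cannot be told apart. Of all tested genes, 3.82% were higher and 2.54% lower by the size rule, and 47.1% lay above 0 in log2 ratio. Over all cell type lists, 16 of 78 tested markers were higher and 8 lower. The lists were chosen with earlier results of these data known, so nothing is read from these counts. Of 14 Cajal-Retzius markers 4 rose and 1 fell, and 11 had log2 ratios above 0, with a median of 0.82. Together they held 360.9 CPM in the knockdown and 224.2 CPM in the control, and none was at 0. Most of that difference lies in Tbr1 (151.1 CPM in the knockdown, 68.3 CPM in the control) and Cacna2d2 (69.3 CPM in the knockdown, 38.2 CPM in the control). Barhl1 held 28 counts in the knockdown and 7 in the control (ratio 4.22, 1.80 to 11.4), Lhx1 held 82 in the knockdown and 29 in the control (2.98, 1.93 to 4.73), and Ebf2 held 50 in the knockdown and 24 in the control (2.20, 1.33 to 3.74). These 3 and Tbr1 are transcription factors and make up the 4 that rose. With a minimum of 10 CPM the call of Tbr1, which is also a glutamatergic marker, was the 1 left of these 4. Trp73, the p53 relative that marks Cajal-Retzius cells most narrowly, held 54 counts in the knockdown and 35 in the control (1.63, 1.05 to 2.57), short of the rule. Ndnf fell, at 66 counts in the knockdown and 140 in the control (0.498, 0.366 to 0.671), a call lost with TMM scaling and with 5 counts added, and Calb2, the calcium-binding protein calretinin, had a ratio of 0.641 (0.518 to 0.792). Apart from Tbr1 and Cacna2d2, no marker of the list exceeded 30 CPM in either library, so most of the list rests on far fewer counts than Reln.

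Interneurons are another source of Reelin, and their markers went both ways. Of 12 tested markers 2 rose and 2 fell, with 8 above 0 in log2 ratio, 4 below and a median of 0.35. The list summed to 1005 CPM in the knockdown and 738.7 CPM in the control. That difference rests on 2 genes, Sst (328.3 CPM in the knockdown, 161.4 CPM in the control) and Gad1 (227.9 CPM in the knockdown, 129.3 CPM in the control). Gad2, which like Gad1 encodes a GABA-synthesizing enzyme, was lower, at a ratio of 0.821 (0.748 to 0.902). Nos1, neuronal nitric oxide synthase, held 322 counts in the knockdown and 98 in the control (3.47, 2.76 to 4.39), and Sst, somatostatin, held 2857 in the knockdown and 1482 in the control (2.04, 1.91 to 2.17). Sp8, a transcription factor of ventral progenitors and interneurons, fell (0.451, 0.388 to 0.522), and Ndnf is the other that fell. Lamp5 had 5 counts in the knockdown and 0 in the control.

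Several markers of neurons in general rose as well. Of 8 glutamatergic markers 3 rose and none fell (median 0.79, sums of 880.3 CPM in the knockdown and 549.4 CPM in the control). Slc17a7, a vesicular glutamate transporter, had a ratio of 3.64 (3.11 to 4.28), and Neurod2, a neuronal transcription factor, had 2.35 (2.14 to 2.58). Of 11 pan-neuronal markers 3 rose and none fell (median 0.50, sums of 7720 CPM in the knockdown and 5834 CPM in the control). Gap43, Snap25 and Nefl rose with ratios of 2.46 (2.36 to 2.57), 2.45 (2.24 to 2.67) and 2.59 (2.20 to 3.05). The list also holds Tubb3 at 0.956 (0.928 to 0.985) and Syt1 at 0.588 (0.545 to 0.635), and its median lies below the log2 ratio of Reln, 1.40. The part of these neuronal differences in the Reln ratio was not tested.

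Among other cell types, radial glia markers summed to 5161 CPM in both libraries, but the single genes differed. Of the 11, 7 lay below 0 in log2 ratio and 4 above, with a median of -0.24. Sox1 was the 1 that fell, at a ratio of 0.461 (0.427 to 0.497). The abundant Fabp7 stood above its control level, at 1385 CPM in the knockdown and 1044 CPM in the control. Of 8 oligodendrocyte lineage markers 3 fell, among them Sox10 at 0.360 (0.325 to 0.399) and Mbp at 0.440 (0.374 to 0.517). Of 6 astrocyte markers 1 fell, S100b, with 7 counts in the knockdown and 68 in the control (0.109, 0.0421 to 0.236). That call was lost with a minimum of 10 CPM. The 6 markers summed to 892.5 CPM in the knockdown and 920 CPM in the control, with 2 above 0 in log2 ratio, 4 below and a median of -0.21. Mesenchyme markers held little, at 40.9 CPM in the knockdown and 36.3 CPM in the control for 6 genes, of which Col3a1, Col1a2 and Col1a1 rose and Pdgfrb fell. With a minimum of 10 CPM the calls of the collagen genes were lost and that of Pdgfrb was kept. Microglia markers summed to 5.06 CPM in the knockdown and 2.94 CPM in the control, and C1qa, with 14 counts in the knockdown and 5 in the control, was the 1 that rose. Endothelial markers summed to 13.1 CPM in the knockdown and 6.97 CPM in the control over 3 genes, and Flt1, with 20 counts in the knockdown and 0 in the control, rose. The calls of C1qa and Flt1 were also lost with a minimum of 10 CPM. Of the erythroid markers Alas2 was measured, with 3 counts in the knockdown and 1 in the control.

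**Figure D5:**
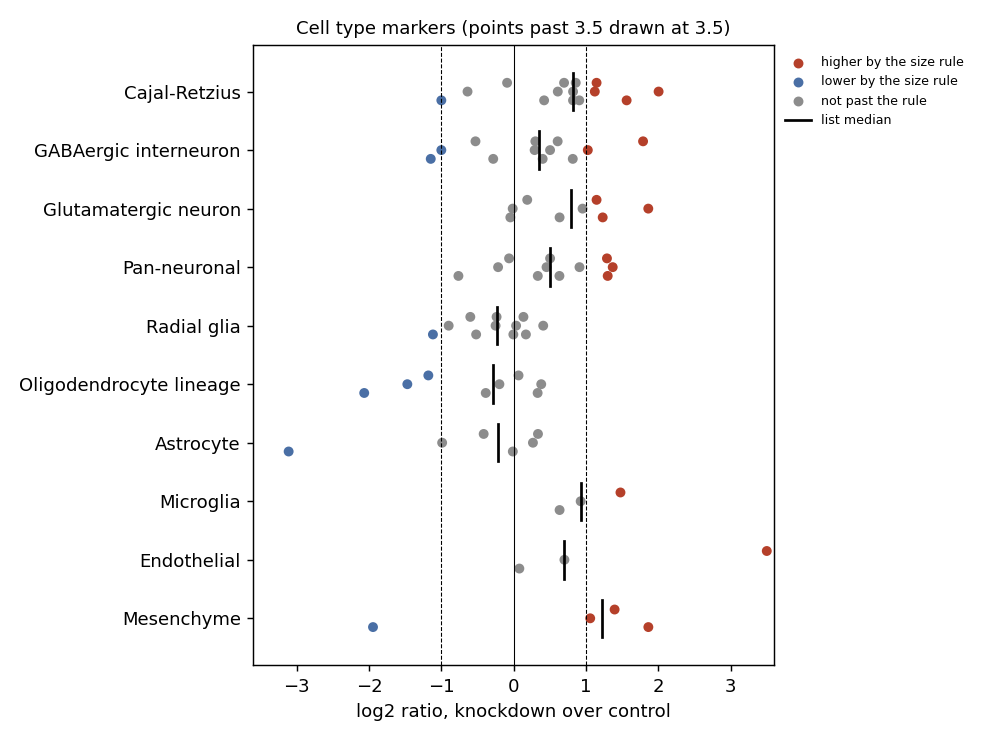
Log2 ratio of knockdown over control (horizontal axis) for each tested cell type marker (rows are cell types), with list medians as black bars, dashed lines at 2-fold, and genes past the size rule in red (higher) or blue (lower). The medians of the Cajal-Retzius, glutamatergic and pan-neuronal rows are 0.82, 0.79 and 0.50, and that of radial glia is -0.24.

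The genes most like each member were those nearest in log2 ratio among genes with a mean CPM within 1.5-fold, a likeness over only 2 libraries. Reln had 725 such candidates, and the nearest were Ccng1 at a log2 ratio of 1.43, Rian at 1.23 and Sez6l at 1.05. The second of these lay 0.17 from Reln. Dab1 had 1962 candidates, of which Prkar2b, Rab3a and Arrdc3 lay within 0.01 of it. For Vldlr the nearest of 2555 were Gde1, Slc4a8 and Enpp5, and for Lrp8 the nearest of 1002 included Anp32e and Fhl1.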

How the data were processed

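RNA-seq libraries of 1 H3.3 knockdown and 1 control were compared. Polyadenylated RNA was enriched with oligo(dT) and primed at random, per the labels' protocols. HTSeq 0.6.0, Bowtie 1.0.1 and TopHat2 2.0.12 were used, per the submitters' processing notes, while build and strand setting are not given there or in the labels. The deposited counts are whole reads per gene, not normalized, per the file headers. The authors' log2 fold change is quoted for the members as the deposited table gives it.

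Counts were divided by the column total, which gives CPM. Log2 ratios had 0.5 count added to each library. Ratio intervals are exact conditional (Clopper-Pearson) 95% intervals of both counts, and the interval of a change between 2 genes is a normal approximation on the log of 4 counts. The libraries were amplified by PCR, the labels mention no molecular identifiers, and reads may share molecules, so intervals cover counting error at most. A count of 0 allows up to 0.345 CPM in the knockdown and 0.327 CPM in the control (3 counts). Symbols matched 18423 of 18510 Ensembl IDs. Positions are those of the deposited table, and for all 4 members they equal those of GENCODE vM21 (GRCm38), which supplied exon lengths. Python 3.11.15, scipy 1.17.1, edgeR 4.0.16 and DESeq2 1.42.0 (scaling factors only) were used.

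The members, the 9 pathway lists and the 11 cell type lists were chosen with earlier results of these data known. Named are all members, their nearest neighbours and likest genes, list genes past the size rule (up to 4 by size for cell types) or otherwise the 2 most abundant, and both H3.3 genes. Adamts3, Fyn, Crk, Crkl, Cul5, Pax6, Sp1, Creb1, Akt1, Nde1, Cdk5r2, Selenop, Thbs1, Efnb2, Efnb3, Tubb3, Syt1, Trp73, Calb2, Cacna2d2, Gad1, Gad2, Fabp7, Olig1, Lamp5 and Alas2 were added after their values were seen. Dcx, Ndnf, Pax6 and Tbr1 stand in more than 1 list. Some genes that the naming rule selects are left out here.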

Additional observations from a re-analysis of the deposited data

How the results depend on the processing

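The log2 ratios of Reln, Dab1, Vldlr and Lrp8 kept their sign under TMM scaling, DESeq2 size factors, 5 added counts and a correction for exon length and GC content. Reln stayed past 2-fold under each, and the correction moved it most, to 1.24. A minimum of 10 CPM left 169 higher and 174 lower genes. It left 8 higher and 7 lower cell type markers, against 16 higher and 8 lower with the minimum of 1 CPM. A 1.5-fold threshold gave 1261 higher and 1147 lower genes, 7 higher and 11 lower pathway genes, and 29 higher and 13 lower markers, and Dab1 then counted as higher. Per length of the longest transcript, levels in the knockdown and the control were 38.3 and 14.5 RPKM for Reln, 32.6 and 20.5 for Dab1, 12.9 and 9.97 for Vldlr, and 33.2 and 41.9 for Lrp8. C1qa lost its call with DESeq2 size factors. No paired analysis was possible because each group held 1 library, and for the same reason no library could be left out. With 5 counts added, the log2 ratios of markers with few counts were 2.40 for Flt1 (5.44 with 0.5), -2.53 for S100b (-3.11 with 0.5) and 1.54 for Barhl1 (2.00 with 0.5).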
